A study of Rattus norvegicus with 24 samples.

Results

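The genes described here are albumin (Alb, ENSRNOG00000002911) and alpha-fetoprotein (Afp, ENSRNOG00000002889), chosen by their Ensembl identifiers, 2 of the 30560 genes counted. They were followed in lung and liver of wild-type Sprague Dawley rat pups by RNA-seq of polyadenylated RNA. All pups received 5 daily subcutaneous injections starting on postnatal day 1, and both organs were frozen on postnatal day 6, 24 hours after the last injection. The injections held dexamethasone at 0.1 mg/kg, desisobutyryl ciclesonide at 1.25 mg/kg or the vehicle, 2.5% ethanol. Each treatment had 4 libraries per tissue, which gave 6 groups and 24 libraries. Dexamethasone is a long-acting synthetic glucocorticoid, and desisobutyryl ciclesonide is the form into which the inhaled steroid ciclesonide is converted in tissue. The doses of the drugs differ, so no comparison between them is at a matched dose. The labels do not name litters or say whether pups were pooled, so the p-values below measure the spread between these libraries.

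Albumin and alpha-fetoprotein belong to the same gene family and are both secreted into the blood by the liver. Albumin, made by hepatocytes throughout life, holds plasma volume and carries fatty acids, bilirubin and hormones. Alpha-fetoprotein is its fetal counterpart, made by yolk sac and fetal liver, and its transcription is shut down in the weeks after birth while albumin stays high. The ratio between them is therefore commonly read as a sign of how far liver has moved from the fetal to the postnatal programme, and glucocorticoids are known to lower Afp RNA in liver of newborn rats.

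The genes are neighbours on rat chromosome 14, with 0 other annotated genes between them in the RefSeq table of build GRCr8, and both are read from the minus strand. Their upstream sequences are shown because the results turn on this pair of adjacent genes. Afp was called lower in liver with dexamethasone, as were 24.9% of genes tested. It was also called lower with desisobutyryl ciclesonide, as were 2.43%, but that call lay close to the threshold. Alb was called with neither drug, where 47.5% and 4.52% of genes were called in either direction. A link between the sequences and these calls was not tested. Each sequence is the 250 bases before the RefSeq start site, 5′ to 3′ along the gene, in build GRCr8, at chr14:17875646-17875895 for Afp and chr14:17906980-17907229 for Alb. Capitals mark matches, on either strand, to TATAAA (the TATA box), GTTAAT (part of the site of the hepatocyte factor HNF1), TGTTTAC (forkhead factors), CCAAT, and AGAACA (part of the site of the glucocorticoid receptor).
Afp: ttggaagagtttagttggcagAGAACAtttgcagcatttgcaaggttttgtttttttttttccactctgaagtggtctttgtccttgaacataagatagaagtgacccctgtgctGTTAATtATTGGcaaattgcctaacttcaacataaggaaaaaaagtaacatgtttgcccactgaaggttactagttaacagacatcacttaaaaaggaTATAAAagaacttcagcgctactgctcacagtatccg
Alb: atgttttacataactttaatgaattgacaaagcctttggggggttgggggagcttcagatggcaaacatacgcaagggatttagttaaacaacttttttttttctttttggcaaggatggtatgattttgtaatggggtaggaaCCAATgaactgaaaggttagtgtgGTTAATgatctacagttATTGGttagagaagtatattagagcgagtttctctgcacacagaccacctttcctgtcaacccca
Both windows hold 1 match to GTTAAT, which 6.45% of 33469 rat promoter windows of this length hold. In Afp it lies 135 to 130 bases before the start, and in Alb 82 to 77 bases before it. Afp has 1 match to TATAAA (in 12.9% of windows) and 1 to AGAACA (in 17.5%), 229 to 224 bases before the start, and the Alb window has 0 of either. CCAAT, present in 34.0% of windows, matched at 1 place in Afp and at 2 places in Alb. TGTTTAC, in 3.21% of windows, matched neither window. No match overlapped another. Only exact matches were sought, so variants of these sites, including other forms of the TATA box, are not marked.

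Libraries held 15397992 to 26194384 gene counts in liver and 15839958 to 27881158 in lung. The share of entries that did not align was 1.10% ± 0.258 in liver and 1.08% ± 0.158 in lung for desisobutyryl ciclesonide, against 2.69% ± 0.522 and 2.64% ± 0.287 for vehicle (SD, n = 4 each). The submitters' names for the libraries also number the desisobutyryl ciclesonide libraries apart from the other 16. That numbering and the drug cannot be told apart in any comparison with this drug.

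In liver, Afp was far lower with dexamethasone than with vehicle, while the change in Alb did not pass the test. Afp stood at 359, 155, 476 and 513 CPM in dexamethasone livers, against 23880, 31184, 34264 and 25467 CPM in vehicle livers (CPM, the usual depth-scaled count unit, here on library sizes scaled by TMM). Every dexamethasone liver lay far below every vehicle liver, in a comparison where the groups did not overlap for 42.5% of genes tested. Afp averaged 376 ± 161 CPM with dexamethasone and 28699 ± 4859 CPM with vehicle (SD, n = 4 each), so it was 76.4-fold lower (log2 change -6.26, SE 0.44, edgeR adjusted p = 2.6e-07). It took 0.0351% ± 0.0171 of all gene counts in dexamethasone livers and 3.06% ± 0.443 in vehicle livers. In this comparison 24.9% of the 13734 genes tested were called lower, so a fall as such was common. Its size was not. Afp had the 23rd largest fall of the genes tested, and the 22 genes with larger falls averaged at most 192 CPM in vehicle livers. Among the 79 genes with at least 1000 CPM in vehicle livers, 27 fell, and Afp fell furthest, ahead of a gene with a log2 change of -5.27. The genes called lower lost 18.0 percentage points of the liver's gene counts, of which Afp made up 3.02 points, or 16.8%. In bulk tissue, fewer cells of a type and less RNA per cell cannot be told apart.

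**Figure D1:**
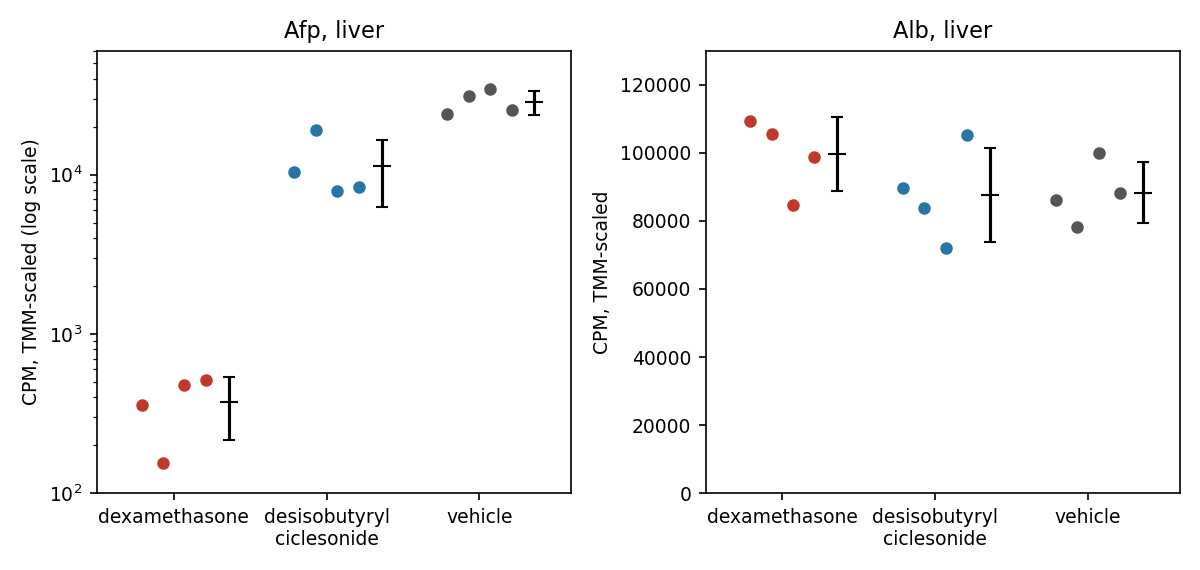
Level of Afp (left, log axis) and Alb (right, linear axis from 0) in each liver library, in CPM on TMM-scaled library sizes. Points are the 4 libraries of a treatment in order of replicate number, and bars to their right are the mean with SD. Afp lies between 155 and 513 CPM with dexamethasone, between 7887 and 18988 CPM with desisobutyryl ciclesonide and between 23880 and 34264 CPM with vehicle, while the Alb groups overlap.

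Alb, the most familiar product of hepatocytes, stood at 109272, 105399, 84540 and 98921 CPM in dexamethasone livers, against 86250, 78284, 100038 and 88345 CPM in vehicle livers. The groups overlapped. It averaged 99533 ± 10869 CPM with dexamethasone and 88229 ± 8986 CPM with vehicle (SD, n = 4 each), a difference that did not pass the test (log2 change 0.17, SE 0.20, 95% interval -0.26 to 0.61, edgeR adjusted p = 0.507). In this comparison 47.5% of genes tested were called in either direction. Alb took 8.99% ± 0.795 of gene counts in dexamethasone livers and 9.40% ± 0.582 in vehicle livers. Scaled by total gene counts alone the log2 change was -0.06, but this scaling also put the median of all genes at -0.26, against -0.02 with TMM. Alb stood above the median gene under either scaling.

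Afp in liver was also lower with desisobutyryl ciclesonide than with vehicle, by a much smaller factor. Afp stood at 10401, 18988, 7887 and 8323 CPM in desisobutyryl ciclesonide livers, against the vehicle values above, and the groups did not overlap, as was so for 15.7% of genes tested. Replicate 2 lay nearest to vehicle. The mean was 11400 ± 5177 CPM with desisobutyryl ciclesonide and 28699 ± 4859 CPM with vehicle (SD, n = 4 each), 2.52-fold lower (log2 change -1.33, SE 0.35, edgeR adjusted p = 0.0447). Here 2.43% of genes tested were called lower and 2.09% higher. Afp had the 280th largest fall of the genes tested and the second largest of the 79 abundant genes, of which 4 fell. Its share of gene counts was 1.20% ± 0.598 with desisobutyryl ciclesonide, so that Afp supplied 66.4% of the 2.80 percentage points lost by all genes called lower. The call lay close to the threshold. It was lost on leaving out any of the 4 vehicle livers (edgeR adjusted p = 0.0629, 0.0938, 0.12 and 0.0774 without replicates 1 to 4) or desisobutyryl ciclesonide replicates 1, 3 or 4 (0.0948, 0.13 and 0.1246), and held at 0.0182 without replicate 2. It was also lost with limma-voom (0.0812), with total counts alone (0.0779) and without the expression filter (0.0633), and held with DESeq2 (0.00241), while the log2 change stayed between -1.69 and -1.19 in these settings.

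Alb stood at 89543, 83900, 72087 and 105166 CPM in desisobutyryl ciclesonide livers, a range that spans all 4 vehicle values. The mean of 87674 ± 13744 CPM with desisobutyryl ciclesonide was within 1 SD of the 88229 ± 8986 CPM with vehicle (log2 change -0.01, SE 0.20, 95% interval -0.45 to 0.43, edgeR adjusted p = 0.988). Of the genes tested, 4.52% were called in either direction.

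**Figure D2:**
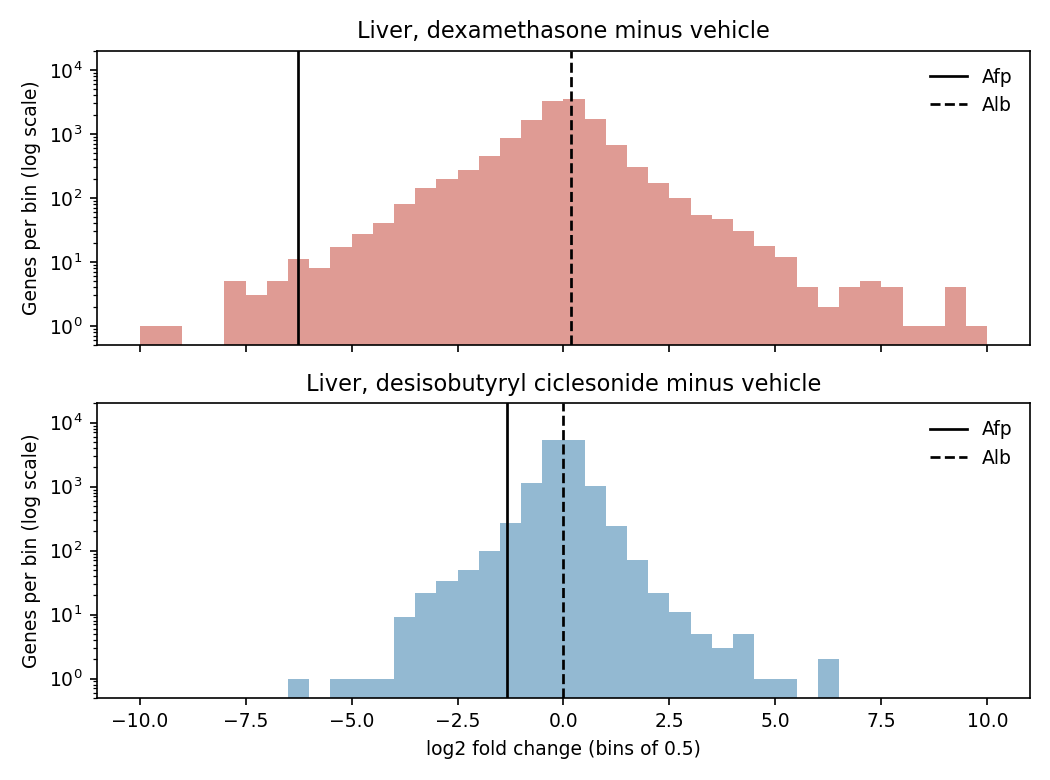
Distribution of log2 fold changes of the 13734 genes tested in liver, for dexamethasone (top) and desisobutyryl ciclesonide (bottom) against vehicle, in bins of 0.5 with the number of genes on a log axis. The solid line marks Afp, at -6.26 and -1.33, and the dashed line marks Alb, at 0.17 and -0.01, near the centre of both distributions.

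At these unmatched doses, the amount of Afp RNA in liver differed widely between the 2 drug groups. Afp was 30.3-fold higher in desisobutyryl ciclesonide livers than in dexamethasone livers (log2 difference 4.92, SE 0.41, 95% interval 4.05 to 5.80, edgeR adjusted p = 8.29e-07), and all 4 desisobutyryl ciclesonide livers lay above all 4 dexamethasone livers, where 41.6% of genes did not overlap. In this comparison 23.8% of genes tested were called higher, and Afp had the 46th largest rise. Alb did not pass (log2 difference -0.18, SE 0.20, 95% interval -0.62 to 0.25, edgeR adjusted p = 0.487), where 46.3% of genes were called in either direction.

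The number of Afp counts per 100 Alb counts gives the balance between the genes within a library, whatever the scaling. It is not divided by transcript length, so its differences between groups can be read and its absolute size cannot. In liver it was 0.329, 0.147, 0.563 and 0.519 with dexamethasone, 11.6, 22.6, 10.9 and 7.91 with desisobutyryl ciclesonide, and 27.7, 39.8, 34.3 and 28.8 with vehicle. The 3 groups were separate, with dexamethasone lowest and vehicle highest. Since no Alb difference passed in liver, this repeats the separation of Afp above and is not a second result. Single genes did not overlap in 42.5% for dexamethasone against vehicle, 15.7% for desisobutyryl ciclesonide against vehicle and 41.6% between the drugs. On the log2 scale the ratio averaged -8.18 ± 0.89 with dexamethasone, -3.03 ± 0.64 with desisobutyryl ciclesonide and -1.63 ± 0.24 with vehicle (SD, n = 4 each). This is a 93.7-fold lower ratio with dexamethasone and a 2.63-fold lower ratio with desisobutyryl ciclesonide than with vehicle, described here without a test.

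Afp varied more than Alb between libraries of the same treatment in liver. Its coefficient of variation in liver was 42.9% with dexamethasone, 45.4% with desisobutyryl ciclesonide and 16.9% with vehicle. For Alb it was 10.9%, 15.7% and 10.2%. Within dexamethasone, the highest Afp liver held 3.31 times the CPM of the lowest, and within desisobutyryl ciclesonide 2.41 times, against 1.43 times within vehicle. These are descriptions of 4 livers each, and the difference in spread was not tested.

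Across the 12 liver libraries the pattern of Afp was shared with many genes and that of Alb with few. The log2 CPM of 812 of 13733 other genes had a Pearson r above 0.9 with Afp, and that of 0 genes did with Alb. The libraries fall into treatment groups, so r mainly compares treatment means. The files do not pair identifiers with names, so neighbours in pattern are given by identifier. The closest to Afp was ENSRNOG00000002052 (r = 0.994 over 12 libraries), at 14.2 ± 2.59 CPM with dexamethasone, 87.2 ± 7.34 with desisobutyryl ciclesonide and 132.7 ± 8.003 with vehicle (SD, n = 4 each), followed by ENSRNOG00000062375 (r = 0.990). The closest to Alb were ENSRNOG00000014058 (r = 0.878) and ENSRNOG00000063254 (r = 0.853). Alb and Afp themselves had an r of -0.48.

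Lung held traces of both transcripts. Vehicle lungs had 174, 5, 24 and 118 counts of Alb and 42, 7, 9 and 33 counts of Afp in whole libraries, or 3.57 ± 3.54 and 1.02 ± 0.758 CPM, against 88229 ± 8986 and 28699 ± 4859 CPM in vehicle livers (SD, n = 4 each). The log2 difference of vehicle lung less vehicle liver was -15.86 for Alb (SE 1.94, edgeR adjusted p = 1.64e-07) and -16.03 for Afp (SE 1.501, edgeR adjusted p = 2.87e-09), in a comparison that called 70.8% of 16477 genes. These differences used TMM over all 24 libraries, while the CPM were scaled within each tissue, so CPM and differences are not on one scale. With the replicate number as a block the differences were -16.46 and -16.15 (edgeR adjusted p = 2.11e-06 and 3.5e-08). Scaled by total counts alone, without the block, they were -14.62 and -14.79, where the median of all genes stood at 1.42, against 0.18 with TMM. Replicates 1 and 4 were high and replicates 2 and 3 low for both transcripts.

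With dexamethasone, neither transcript passed the main test in lung. Alb had 37, 35, 630 and 34 counts in dexamethasone lungs, with replicate 3 standing apart. Afp had 0, 0, 0 and 4 counts there, against 7 to 42 in vehicle lungs, so the groups did not overlap. A count of 0 allows up to 3 counts, which in these 3 libraries is 0.128 to 0.159 CPM and covers counting error only. Afp averaged 0.0359 ± 0.0719 CPM with dexamethasone and 1.02 ± 0.758 CPM with vehicle (SD, n = 4 each), and the fall did not pass the main test (log2 change -4.40, SE 2.08, edgeR adjusted p = 0.0973), although it did with DESeq2 (adjusted p = 0.0206). Afp entered the test through vehicle and desisobutyryl ciclesonide libraries, since most dexamethasone lungs had no count. In this comparison 28.7% of the 16108 genes tested were called lower and log2 CPM did not overlap between groups in 50.3%. Alb averaged 7.84 ± 12.4 CPM with dexamethasone and 3.57 ± 3.54 CPM with vehicle (log2 change 1.13, SE 1.73, edgeR adjusted p = 0.608, where 55.6% were called in either direction), and without dexamethasone replicate 3 the log2 change was -1.14.

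**Figure D3:**
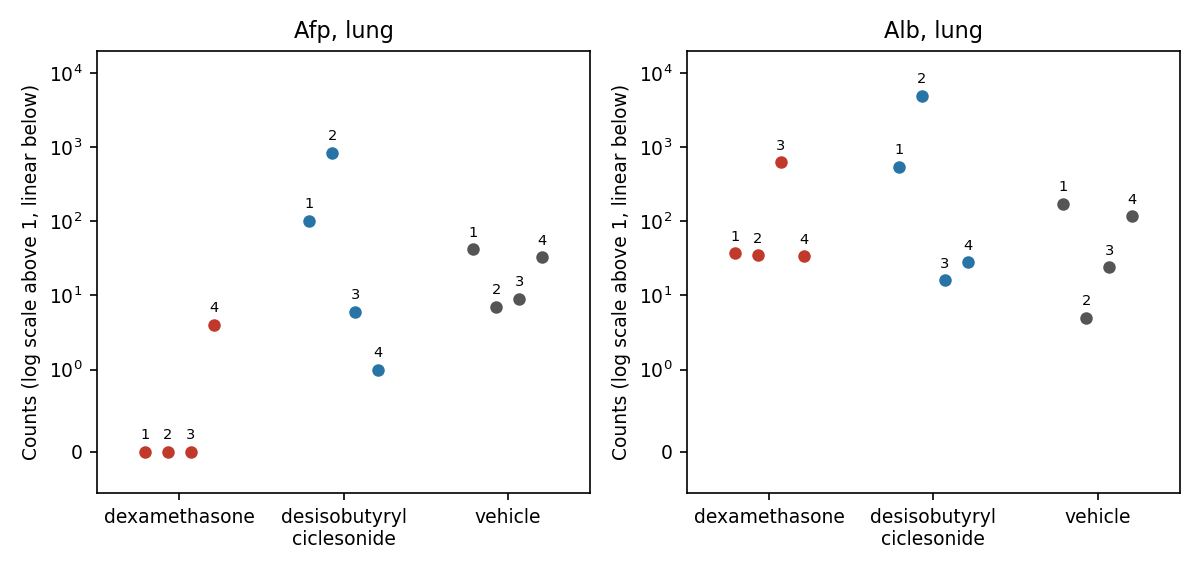
Raw counts of Afp (left) and Alb (right) in each lung library, labelled with the replicate number, on an axis that is logarithmic above 1 and linear below. Afp is at 0 in dexamethasone replicates 1 to 3, and desisobutyryl ciclesonide replicate 2 is the highest library for both genes, with 847 and 4916 counts.

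Desisobutyryl ciclesonide lungs ranged most widely. Alb had 542, 4916, 16 and 28 counts and Afp 102, 847, 6 and 1, so replicates 1 and 2 lay above every vehicle lung for both genes, and replicates 3 and 4 lay within or below the vehicle range. The means were 61.3 ± 104.9 CPM for Alb and 10.6 ± 18.04 CPM for Afp with desisobutyryl ciclesonide, against 3.57 ± 3.54 and 1.02 ± 0.758 CPM with vehicle (SD, n = 4 each). Neither difference passed the main test (log2 change 4.09, SE 1.84, edgeR adjusted p = 0.14 for Alb; 3.38, SE 1.43, edgeR adjusted p = 0.113 for Afp), where 11.8% of genes were called higher. DESeq2 called Alb (adjusted p = 0.0285) and left Afp at 0.11. Without desisobutyryl ciclesonide replicate 2 the log2 changes were 1.36 and 0.75.

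Between the drugs, the fit over all 12 lungs gave Afp a log2 difference of 7.78 for desisobutyryl ciclesonide less dexamethasone (SE 2.00, edgeR adjusted p = 0.00874, where 25% of genes were called higher). Afp passed the expression filter only through vehicle and desisobutyryl ciclesonide lungs, where it is high, and was removed by the filter when the drugs were fitted alone, so this p does not support a difference. That fitted value rests on 956 counts in 4 desisobutyryl ciclesonide lungs, of which 847 came from replicate 2, and on 4 counts in 4 dexamethasone lungs. It became 5.17 without desisobutyryl ciclesonide replicate 2 (adjusted p = 0.0113) and 10.79 without dexamethasone replicate 4 (adjusted p = 0.0419). Leaving out desisobutyryl ciclesonide replicates 3 or 4 gave 8.18 and 8.19 (adjusted p = 0.00544 and 0.00319). The call was lost with limma-voom (adjusted p = 0.0669). The values overlapped, since desisobutyryl ciclesonide replicate 4 had 1 count and dexamethasone replicate 4 had 4, where 43.9% of genes did not overlap. Alb did not pass (log2 difference 2.96, SE 1.73, edgeR adjusted p = 0.185, where 49.5% of genes were called in either direction).

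The responses of lung and liver were compared directly. For desisobutyryl ciclesonide the Afp change was higher in lung than in liver (difference of log2 changes 4.70, SE 1.29, edgeR adjusted p = 0.0394, where 4.31% of 13245 genes were called). With the replicate number, taken to mark the pup, as a block the difference was 3.08 and the call was lost (adjusted p = 0.164). Without lung desisobutyryl ciclesonide replicate 2 it was 2.21 (adjusted p = 0.201), and 11 of the 16 libraries, that one included, each ended the call when left out. The others of these were lung vehicle replicates 2 to 4, all 4 vehicle livers and desisobutyryl ciclesonide livers 1, 3 and 4, with an adjusted p between 0.0553 and 0.0767. For Alb the difference was 4.09 (SE 1.61, edgeR adjusted p = 0.169), and 2.07 with the block (adjusted p = 0.565). For dexamethasone the differences were 1.94 for Afp (SE 3.45, edgeR adjusted p = 0.703) and 0.96 for Alb (SE 1.57, edgeR adjusted p = 0.677), where 34.7% of genes were called. With the block they were 1.93 for Afp and 0.162 for Alb (edgeR adjusted p = 0.652 and 0.951).

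The balance of the lung traces was set beside that of the liver library with the same replicate number. In vehicle lungs there were 24.1, 140, 37.5 and 27.97 Afp counts per 100 Alb counts, against 27.7, 39.8, 34.3 and 28.8 in the livers, and every liver value lay inside the 95% exact binomial interval of its lung value. Summed over the 4 libraries, the lung ratio was 28.3. In dexamethasone lungs the ratios were 0, 0, 0 and 11.8, against 0.329, 0.147, 0.563 and 0.519 in the livers. All 4 Afp counts came from replicate 4 and 630 of the 736 Alb counts from replicate 3, so no summed ratio is given. Dexamethasone replicate 3 had 630 Alb counts and 0 of Afp in lung, where its own liver ratio would give 3.55 Afp counts and the lowest vehicle liver ratio 174.4. In dexamethasone replicate 4 the 4 Afp counts exceeded the 0.176 that its liver ratio would give. In desisobutyryl ciclesonide lungs the ratios were 18.8, 17.2, 37.5 and 3.57, against 11.6, 22.6, 10.9 and 7.91 in the livers, and the liver value lay outside the interval in replicates 1 to 3. Over all 12 pairs it lay inside in 8, a count that includes intervals too wide to fail. Those of dexamethasone replicates 1 to 3, from 0 to 10.5, 11.1 and 0.587, held every dexamethasone liver ratio. Those of vehicle replicates 3 and 4, from 15.3 to 83.6 and from 18.4 to 41.4, held every vehicle liver ratio. The count therefore does not show that a lung matched its own liver.

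**Figure D4:**
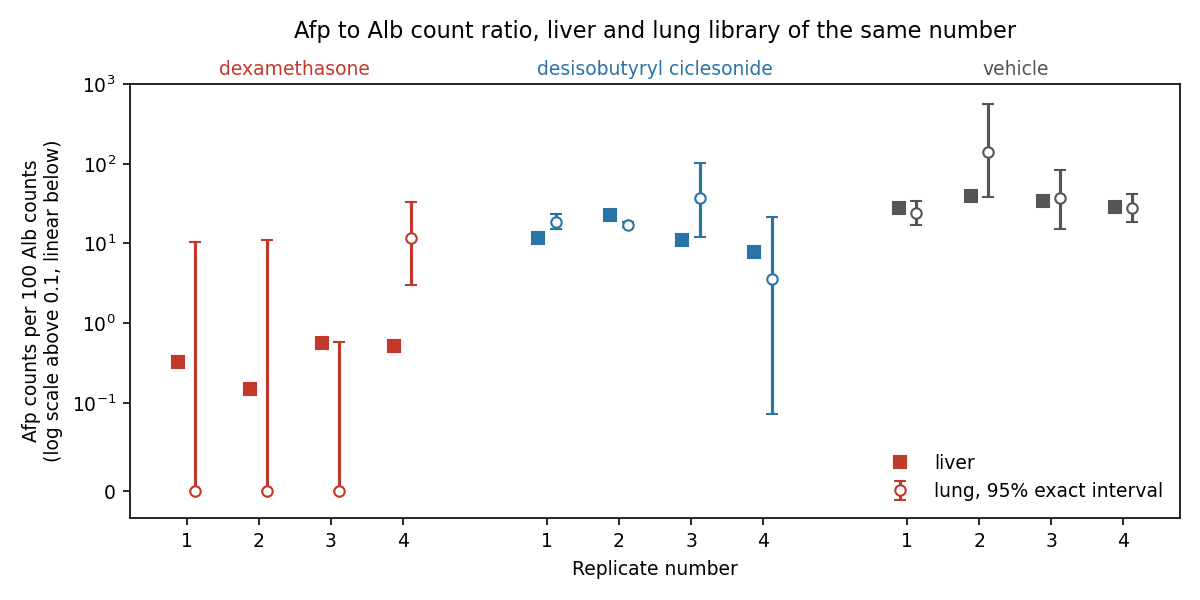
Afp counts per 100 Alb counts in the liver library (filled squares) and the lung library (open circles with 95% exact binomial intervals, counting error only) of the same treatment and replicate number. The axis is logarithmic above 0.1 and linear below. Liver lies between 0.147 and 0.563 with dexamethasone, 7.91 and 22.6 with desisobutyryl ciclesonide and 27.7 and 39.8 with vehicle, and 3 dexamethasone lungs are at 0.

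Other abundant liver transcripts also had counts in every lung library, and their sum was largest in the 3 lungs where Alb was highest. The 20 genes most abundant in vehicle liver among those at least 1000-fold higher there than in vehicle lung, chosen by value and given only as a description, summed to 278.7 CPM (on total gene counts, without TMM) in desisobutyryl ciclesonide replicate 2, 40.9 CPM in desisobutyryl ciclesonide replicate 1 and 36.8 CPM in dexamethasone replicate 3. In the other lung libraries they summed to between 9.47 and 18.1 CPM. As a percentage of the level in the liver of the same number, this was 0.274%, 0.0385% and 0.0448% in those 3 lungs. For Alb the corresponding percentages were 0.233%, 0.0252% and 0.0329%. All 20 genes had counts in those 3 lungs and in vehicle replicate 4, and 12 to 19 had counts in the others. The part of liver material in the lung values was not tested.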

How the data were processed

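RNA-seq libraries were made with a directional kit, per the labels' protocols. Per the submitters' processing notes, cutadapt, HISAT2 and HTSeq were used with build mRatBN7.2; whether counting used strand is not stated. The deposited files hold raw counts per Ensembl gene, with 5 summary rows (16.8% to 31.8% of entries) that were left out. Counts were fitted with edgeR 4.0.16 (R 4.3.3): default expression filter, TMM, quasi-likelihood F-test with robust dispersion over the 12 libraries of a tissue, or all 24 for tissue differences, with Benjamini-Hochberg adjustment over all genes at 0.05. Alternatives used DESeq2 1.42.0, limma 3.58.1, other scalings, no filter, replicate blocks and left-out libraries. Scripts were tested on simulated data. Members and lists were chosen with earlier results of these data known. The test planned for the Afp to Alb ratio is not given, and the ratio is only described. Nearest genes, by the largest Pearson r of log2 CPM (prior count 2) in liver, were shortened to 2 per gene, because 0 of the identifiers matched the RefSeq table of 47357 genes. The 12 gene and marker lists could not be run, so neither tissue label was checked against other markers. Promoters of both genes came from RefSeq GRCr8.

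Deviations from the group means correlated between the lung and the liver that share a treatment and number in all 12 pairs (Pearson r across genes 0.114 to 0.316), so numbers were taken to mark pups across tissues, which the labels do not state. Replicates differed by more than sampling noise in all 36 pairs (chi-square over its degrees of freedom 11.6 or more).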

Additional observations from a re-analysis of the deposited data

Results flagged for a closer look

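Alb in lung dexamethasone replicate 3 stood apart from the other 3 dexamethasone lungs, at a log2 CPM of 4.73 (630 counts, against 34 to 37). Afp in lung dexamethasone replicate 4 had a log2 CPM of -2.07 (4 counts, against 0 in the other 3). With 3 libraries tied at 0 any count in the fourth would be marked, so this mark carries no weight. These were 2 of 18 groups of 4 examined, and chance alone marks about 1 in 20.

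The change of Afp with desisobutyryl ciclesonide passed the test of a difference between lung and liver without a pup block (difference of log2 changes 4.70, edgeR adjusted p = 0.0394). The call was lost with the block (3.08, adjusted p = 0.164) and on leaving out any of 11 of the 16 libraries, so it is not a firm difference. Afp was higher than vehicle in lung replicates 1 and 2 and lower than vehicle in all 4 livers, and lung replicate 2 held 847 of the 956 lung counts.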

How the results depend on the processing

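Alternatives gave 292 values for 18 tested results, and 255 kept direction and side of the threshold, while 26 lost a call. Most of the 18 were not called in the main fit and are counted as kept when they stayed uncalled. The 255 therefore does not measure how firm the calls are. The Afp to Alb ratio has no test. With 1 library left out, its log2 difference from vehicle in liver lay between -6.79 and -6.14 for dexamethasone. For desisobutyryl ciclesonide it lay between -1.69 and -1.18. Leaving out 1 library of a group cannot shift the mean beyond the replicate spread, and the block leaves it unchanged, so neither tests the ratio. The Afp fall with dexamethasone in liver kept direction and side of the threshold in all 16 (log2 change -6.44 to -6.00), as did the difference between drugs (4.56 to 5.11). The Afp fall with desisobutyryl ciclesonide in liver missed the threshold with limma-voom (-1.41), total counts (-1.35), no filter (-1.32) and the replicate block (-1.33, adjusted p = 0.0983), and lay between -1.69 and -1.19 with 1 library left out. Replicate numbers were not taken to pair treatments within a tissue (r above 0.1 in 1 of 12 liver and 5 of 12 lung pairs). For these pairs r ran from -0.093 to 0.107 in liver and from -0.259 to 0.362 in lung, so some shared structure in lung remains possible. The replicate block changed no other call within a tissue. With DESeq2, Afp with dexamethasone (-4.71) and Alb with desisobutyryl ciclesonide (4.12) passed in lung, and the lung Afp difference between drugs missed with limma-voom (5.81). The tissue difference of Afp with desisobutyryl ciclesonide missed with the pup as a replicate block (3.08), limma-voom (2.75) and the filter over all 24 libraries (4.67, adjusted p = 0.0501), and lay between 2.21 and 5.26 with 1 library left out.

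Directions turned for uncalled values: Alb in liver with total counts (dexamethasone -0.0635; between drugs 0.00887), Alb with desisobutyryl ciclesonide without a filter (0.00463) or with 1 library left out (-0.108 to 0.078), and, with 1 library left out, lung Alb with dexamethasone (-1.14 to 1.88) and the tissue differences for dexamethasone (Alb -1.26 to 1.77, Afp -0.56 to 2.49). Restricted to 2 groups, lung Afp was removed by the filter in both comparisons that involve dexamethasone. The number of genes called for desisobutyryl ciclesonide in liver was 621, 1151 with DESeq2 and 295 to 482 with 1 library left out, and in lung 3884, or 2564 without desisobutyryl ciclesonide replicate 3. The causes were not tested. Leaving both genes out of the scaling, chosen after seeing the data, ended no call. Lung values ranged widely between libraries, and their intervals are wide.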
